A study of Mus musculus with 3 samples.

Results

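The histone genes of CD133+ bone marrow cells were followed across cells and libraries. They were taken by symbol: every entry that begins with Hist1h, Hist2h, Hist3h or Hist4h, and the 8 replacement genes H2afz, H2afx, H2afy, H2afv, H3f3a, H3f3b, H1f0 and H1fx. This gave 77 of the 27998 genes counted, of which 69 are replication-dependent. The 69 entries carry 68 symbols, because Hist2h2bb stands under 2 identifiers. By symbol they hold 6 entries of linker histone H1, 19 of H2A, 19 of H2B, 12 of H3 and 13 of H4. All 69 are called replication-dependent by symbol alone. GENCODE M21 lists Hist1h2al as a processed pseudogene and 1 of the 2 Hist2h2bb entries as a long noncoding RNA.

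The study sorted CD133+ cells, which it calls endothelial-like cells, from the marrow of mice labelled C57BL/6 (C57BL/6N in its account of the control library) and sequenced their RNA with a droplet kit that primes on poly(A) tails and counts molecules by unique molecular identifiers (UMIs). There are 3 libraries, called control, young and old by their labels. Cells of 3 mice were pooled in each, so that differences between mice cannot be seen and each condition is 1 sample. Control and young are both labelled 3 months old. The old library is labelled 27 months, while the text of the series gives 18.5 months. No treatment is named in the labels of any library, and what sets control and young apart is not given there. By its 10869 deposited cells, control matches the paper's first profile of CD133+ cells. Young and old, with 8362 and 10597, match the pair of its later comparison of ages.

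Histones package DNA into nucleosomes. The replication-dependent genes lie in clusters, are transcribed mainly while DNA is copied, and give mRNAs that end in a conserved stem-loop instead of a poly(A) tail. The stem-loop binding protein Slbp escorts these mRNAs, and they are degraded when replication stops. The replacement genes are transcribed outside S phase too, carry poly(A) tails and supply variants that are exchanged into chromatin: H2afz and H2afv encode H2A.Z, H2afx the H2A.X that is phosphorylated at DNA breaks, H2afy macroH2A, H3f3a and H3f3b the same H3 variant, and H1f0 a linker histone of cells that stop dividing. In neutrophil development, promyelocytes, which make granule enzymes such as myeloperoxidase (Mpo), and the precursors that follow them divide, and mature neutrophils do not.

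A poly(A)-primed kit sees only part of the replication-dependent mRNA, so the ends of the transcript models are shown for the members that carry the results below. Capitals mark the 16 bases of the stem-loop, and the letters are those of the GENCODE M21 transcripts on GRCm38.
Hist1h2ap: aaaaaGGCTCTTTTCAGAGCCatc
Hist2h2aa1: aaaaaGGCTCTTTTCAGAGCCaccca
Hist1h2bp: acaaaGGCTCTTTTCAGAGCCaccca
Hist1h2bj: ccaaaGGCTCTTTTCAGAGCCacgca
Hist1h1c: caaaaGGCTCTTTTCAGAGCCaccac
Hist1h1e: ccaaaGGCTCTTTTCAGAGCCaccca
Hist1h4i: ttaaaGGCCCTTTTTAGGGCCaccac
Hist1h4d: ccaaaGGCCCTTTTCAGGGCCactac
H2afx: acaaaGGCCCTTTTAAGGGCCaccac
A stem-loop was found in 44 of the 67 replication-dependent members with a transcript model, and 24 of them had the same 16 bases as Hist1h2ap. The other 23 models held none, and some of these are short, as Hist1h4k with 312 bases and Hist1h2bn with 381. A stem-loop past the end of a model would be missed, so its absence there does not show that the gene lacks it. The H4 gene Hist1h4d differs from Hist1h2ap inside the stem, and the H4 gene Hist1h4i both there and in the loop. Of the 44 models, 22 end within 100 bases of the stem-loop, as Hist1h2ap does after 3 bases, and 22 run on, as Hist1h1c does for 840 bases to an end with the poly(A) signal AATAAA in its last 50 bases. H2afx was the only replacement gene with a stem-loop, 822 bases before the end of its model. Near-identical copies limit the counts: a median of 37.1% of the 100-base windows of a replication-dependent transcript also occur in another gene, against 0.700% for replacement genes. In Hist1h2ap 92.2% and in Hist2h2aa1 88.3% of the windows were shared, and all of those in their last 400 bases, so the counts of such genes are uncertain.

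The starts of 5 members described below are shown too, with 3 short motifs that were counted over all genes. RefSeq sequences on GRCm38.p6, from 250 bases before to 50 bases after the start, were at hand for 61 replication-dependent and 7 replacement members. Capitals mark the box CCAAT, the start motif TATAAA, and the motif AAACACA known from H1 genes, each searched on either strand.
Hist1h1b (chr13:21780576-21780875, minus strand): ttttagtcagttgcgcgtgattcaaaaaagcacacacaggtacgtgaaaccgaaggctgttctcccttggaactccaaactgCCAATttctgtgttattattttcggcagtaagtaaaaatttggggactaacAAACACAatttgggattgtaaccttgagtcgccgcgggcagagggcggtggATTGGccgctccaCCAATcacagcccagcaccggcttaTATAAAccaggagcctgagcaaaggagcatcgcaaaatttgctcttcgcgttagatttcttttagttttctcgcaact
Hist1h1c (chr13:23738557-23738856, plus strand): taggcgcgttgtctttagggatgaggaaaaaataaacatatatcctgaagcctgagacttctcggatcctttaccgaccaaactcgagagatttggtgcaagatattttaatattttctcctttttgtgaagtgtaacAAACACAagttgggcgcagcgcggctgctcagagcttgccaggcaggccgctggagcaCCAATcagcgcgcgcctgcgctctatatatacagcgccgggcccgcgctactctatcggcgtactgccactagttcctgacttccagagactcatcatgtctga
H3f3a (chr1:180813556-180813855, minus strand): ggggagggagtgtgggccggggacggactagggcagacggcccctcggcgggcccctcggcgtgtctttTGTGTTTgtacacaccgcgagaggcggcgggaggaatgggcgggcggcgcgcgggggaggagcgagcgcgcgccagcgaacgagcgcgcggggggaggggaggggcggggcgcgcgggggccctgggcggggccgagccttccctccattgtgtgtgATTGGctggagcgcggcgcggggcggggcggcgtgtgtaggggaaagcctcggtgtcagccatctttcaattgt
H3f3b (chr11:116024455-116024754, minus strand): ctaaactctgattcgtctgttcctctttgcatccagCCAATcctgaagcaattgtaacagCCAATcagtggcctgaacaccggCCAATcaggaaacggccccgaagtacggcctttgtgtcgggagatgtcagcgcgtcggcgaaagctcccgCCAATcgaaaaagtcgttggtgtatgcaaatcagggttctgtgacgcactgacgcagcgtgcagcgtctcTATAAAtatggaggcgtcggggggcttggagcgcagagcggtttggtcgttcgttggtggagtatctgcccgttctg
H1f0 (chr15:79027962-79028261, plus strand): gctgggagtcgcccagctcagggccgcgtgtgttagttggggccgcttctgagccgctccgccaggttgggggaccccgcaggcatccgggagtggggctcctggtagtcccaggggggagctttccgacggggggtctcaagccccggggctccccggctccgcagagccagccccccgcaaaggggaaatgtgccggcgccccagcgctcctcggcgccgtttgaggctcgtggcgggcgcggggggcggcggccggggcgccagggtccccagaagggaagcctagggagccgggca
CCAAT occurred in 52 of 61 replication-dependent starts (85.2%), against 37.4% of all 32851 starts listed, and TATAAA in 57.4% against 13.6%. AAACACA occurred in 5 of 6 replication-dependent H1 genes and in 7.18% of all starts. The H4 starts held CCAAT in 3 of 12. H3f3b had 4 CCAAT and 1 TATAAA, H3f3a 1 CCAAT and 1 AAACACA, and none of the 3 motifs was in the H1f0 window. These are matches of letters, not sites. The windows of H1f0, H3f3a and H3f3b follow RefSeq starts and do not cover the gene starts in GENCODE M21. Those lie at 79028450, 180813943 and 116027962, so motifs near them would be missed. Some H2A and H2B genes start back to back, as Hist1h2ag at 22042944 and Hist1h2bj at 22043214 on chromosome 13. Windows of such pairs can overlap, so 1 match can count for both genes.

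After filters, 9690 control, 6638 young and 9583 old cells were used, with 95250073, 67944803 and 118531649 UMIs and a median of 9594, 10325 and 12702 UMIs per cell. Levels are UMIs per 1000000 UMIs (CPM) summed over cells, with exact 95% intervals that cover counting error only. A 3′ count does not grow with transcript length, and levels are compared within a gene or list. The cells were tested against markers of their label: 8 endothelial genes summed to 7.69 to 9.04 CPM, with 0 to 13 UMIs of Cdh5, whereas neutrophil precursor genes summed to between 114453 and 132708 CPM. From the young library 740 cells (10.0%) were set aside for markers of other blood cells, against 90 (0.920%) and 98 (1.01%) in control and old. In those cells replication-dependent histones stood at 1698 CPM in young, 1299.7 in control and 885 in old. Of the barcodes, 2.61% to 2.91% per library also occurred in another library.

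Of the 77 members, 36 reached 10 CPM in at least 1 library. They were 29 replication-dependent and 7 replacement genes, without H1fx at 0.127 to 0.721 CPM. The other 40 replication-dependent members stayed below 10 CPM everywhere, gave 8.18%, 10.1% and 8.59% of the replication-dependent UMIs in control, young and old, and included 9 below 1 CPM in every library. Hist1h2aa and Hist1h2ba had 0 UMIs, which allows up to 0.0253 to 0.0442 CPM per library (3 counts). Summed, the 69 replication-dependent genes gave 1074 CPM in control, 1426 in young and 1238 in old. The 8 replacement genes gave 6651, 6880.1 and 6933 CPM. The replacement sum was led by H2afz with 3129, 3155 and 3075 CPM and H3f3b with 1794, 1704 and 1878 CPM. The replication-dependent sum was led by Hist1h2ap, an H2A gene, with 387, 461 and 366 CPM, or 36.1%, 32.3% and 29.5% of that sum.

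The replication-dependent genes followed the cell cycle in every library. Cells were ranked by the summed level of 24 S-phase genes and again by that of 20 G2/M genes, neither list holding a histone, both times in 4 bins of equal size, and the top and bottom bins were compared. From the bottom to the top S-phase bin the replication-dependent sum rose from 493 to 1247 CPM in control (log2 ratio 1.34, interval 1.30 to 1.37), from 635 to 1642 in young (1.37) and from 340.0 to 1585 in old (2.22). From the bottom to the top G2/M bin it rose from 433 to 1431 CPM in control, from 487 to 1845 in young and from 332 to 1874 in old. Most of the S-phase difference lay between the bottom bin and the next. The 4 bins gave 493, 1161, 1202 and 1247 CPM in control and 635, 1549, 1612 and 1642 in young. In old they gave 340.0, 1159, 1551 and 1585 CPM. Without Hist1h2ap the bins above the bottom had 743, 727 and 799 CPM in control, 1087, 1007 and 1095 in young. In old they had 849.6, 1046 and 1096 CPM. The bottom bins did not hold like cells in each library. In the bottom S-phase bin the G2/M list stood at 2279.9 CPM in control and 2306 in young, but at 1069 in old. In the bottom G2/M bin the S-phase list stood at 1826, 1828 and 674 CPM. What this adds to the larger ratios of old was not tested. The bottom bins also had shallower cells, with a median of 6700 against 11480.5 UMIs for the S-phase list in control. With each cell thinned to 3000 UMIs the S-phase log2 ratios were 1.17, 1.21 and 1.77.

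Member by member the relation was broad, with few exceptions. Among genes at 10 CPM or more in either bin, 16 of 19 replication-dependent members were at least 1.5 times higher in the top S-phase bin in control, 30 of 34 in young and 26 of 28 in old, where 46.9%, 47.6% and 50.5% of all genes tested were. Lower by that size were 0 members, where 9.32%, 9.12% and 10.4% of all genes were. For the G2/M list they were 23 of 25, 32 of 34 and 33 of 33, where 9.44%, 9.96% and 34.5% of all genes were, and again 0 were lower, where 11.8%, 8.51% and 8.12% of all genes were. The median log2 ratio for the G2/M list was 1.52, 1.90 and 2.69 for these members and 0.016, 0.037 and 0.37 for all genes. Hist1h2ap rose from 79.9 to 545 CPM in control, from 61.6 to 591 in young and from 37.4 to 596 in old. Hist1h1b, a linker histone gene, rose from 30.1 to 114, from 33.7 to 143 and from 15.5 to 139 CPM. The H2B gene Hist1h2bc barely followed the lists in control, with 36.6 and 39.5 CPM in the bottom and top G2/M bins (log2 ratio 0.11, interval -0.032 to 0.25). In young it went from 36.4 to 51.0 CPM and in old from 36.0 to 99.0 CPM, so its size depended on the library.

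**Figure D1:**
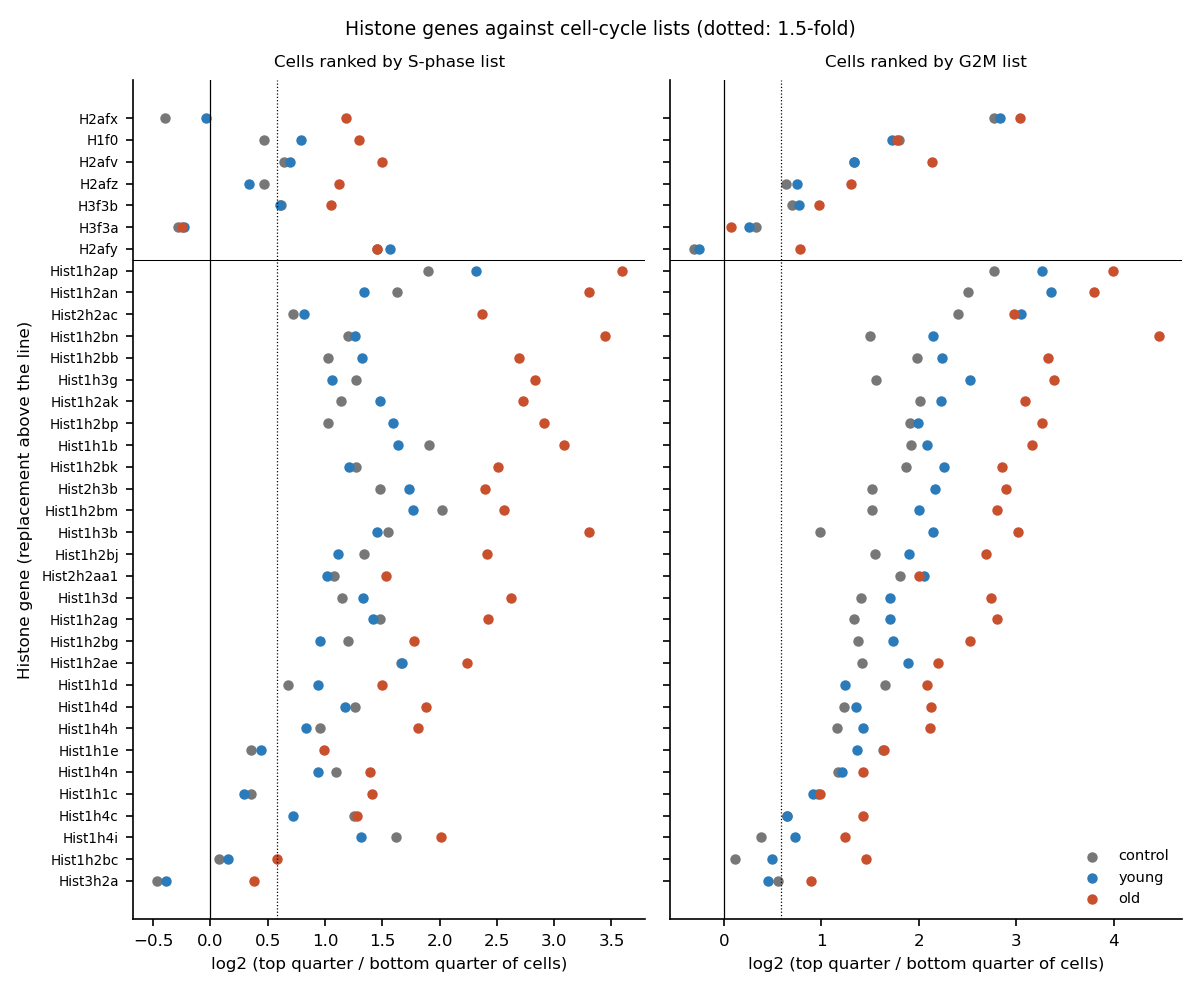
Log2 ratio of each histone gene at 10 CPM or more in any library between the top and bottom bins of cells ranked by the S-phase list (left) or the G2/M list (right), with 1 point per library and no error bars. Most points lie to the right of 0. For G2/M, Hist1h2ap lies at 2.77 to 3.99 and H3f3a at 0.071 to 0.33, and Hist1h2bc lies near 0 in control (0.11) but at 1.46 in old.

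The level was highest in cells high in both lists. In cells of the bottom bin of both, the replication-dependent sum was 202 CPM in control, 295 in young and 276 in old. It was 736, 779 and 883 CPM with the S-phase list high and the G2/M list low, and 891, 1062 and 853 CPM in the opposite corner. With both high it reached 1928, 2601 and 2131 CPM, in 84, 70 and 178 cells. Hist1h2ap ran from 20.4 to 941 CPM between the low and high corners in control, from 19.0 to 1046 in young and from 24.6 to 778 in old. Hist1h1c, another linker histone gene, ran only from 23.4 to 49.3, from 43.7 to 87.7 and from 38.8 to 97.1 CPM. Across cells the rank correlation of the replication-dependent sum was 0.38, 0.38 and 0.53 with the S-phase list and 0.50, 0.52 and 0.57 with the G2/M list in control, young and old, with every value of a cell sharing its depth.

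Members whose models end at the stem-loop had larger median ratios for the G2/M list than those whose models run on. There the median log2 ratio was 1.69, 2.09 and 2.92 in control, young and old over the 12 members at 10 CPM with the short end, and 1.30, 1.30 and 1.86 over the 10 with the long end. The ranges overlapped, with 0.99 to 2.77 against 0.38 to 1.65 in control, and for the S-phase list the medians of short and long ends were 1.19 and 1.17 in control, 1.16 and 0.95 in young and 2.46 and 1.64 in old. The 6 members without a stem-loop in the model had G2/M medians of 1.72, 2.16 and 3.12. Of the members at 10 CPM, Hist1h1c and the H2A genes Hist3h2a and Hist1h2ae have long ends with AATAAA, and they did not go together. Their G2/M ratios in control, young and old were 0.97, 0.91 and 0.99 for Hist1h1c, 0.56, 0.45 and 0.89 for Hist3h2a, and 1.42, 1.89 and 2.20 for Hist1h2ae, and the S-phase ratio of Hist3h2a was below 0 in control and young (-0.47 and -0.39).

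The replacement genes split by cycle. Of the 7 at 10 CPM or more, H2afx rose most from the bottom to the top G2/M bin: 78.7 to 538 CPM in control, 73.1 to 521 in young and 58.4 to 479 in old, or 6.83, 7.13 and 8.21 times. For the S-phase list it went from 247 to 187 CPM in control and from 227 to 221 in young, and only in old was it higher in the top bin (91.9 to 208 CPM). H2afv rose from 159.9 to 403, from 223 to 561 and from 119 to 522 CPM along the G2/M list. H2afy rose with the S-phase list in each library, from 77.7 to 212 CPM in control, from 59.4 to 177 in young and from 66.7 to 182 in old. Along the G2/M list it went from 143 to 116 CPM in control and from 117 to 98.5 in young, but rose from 76.6 to 132 in old. The bottom bins of old were lower in the other list than those of control and young. Its part in the other directions of H2afx and H2afy in old was not tested. H3f3a was lower in the top S-phase bin in each library, with log2 ratios of -0.28, -0.23 and -0.25, and H3f3b higher, with 0.62, 0.61 and 1.05. The median gene tested was itself higher there by 0.51, 0.54 and 0.60, so H3f3b stood near it in control and young. At least 1.5 times higher were 3, 4 and 6 of 7 replacement genes, beside 46.9%, 47.6% and 50.5% of all genes.

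Cells were next ordered by Mpo. Bands of 0, above 0 to under 5, 5 to under 20, 20 to under 50, and 50 or more Mpo UMIs per 10000 UMIs are called zero, low, middle, high and highest; they are ranges, not cell types. The zero band held 360 control, 349 young and 413 old cells and the highest 1250, 1211 and 832. Elane, another promyelocyte enzyme, rose with Mpo (a median of 10.7 per 10000 in the zero and 233 in the highest band in control), and Ngp of later precursors fell (706 and 62.7). The limit at 5 is soft, with 14.3% to 23.4% of cells within 1 UMI of it, and 0.226% to 0.815% lie that near the limits at 20 and 50. Cells of the zero band were shallow, with a median of 5927, 6004 and 8205 UMIs against 12821, 12182 and 15060.5 in the highest.

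Replication-dependent histones, summed, were at their highest in the middle or high band and fell in the highest. In control the sum was 992, 1122, 1165, 1175 and 739 CPM from the zero to the highest band. In young it was 1094, 1487, 1529, 1652 and 1168 CPM, and in old 828, 1213, 1384, 1422 and 1044 CPM. The 3 libraries share the drop after the high band. In control the middle and high bands did not differ beyond counting error (1151 to 1178 and 1152 to 1197 CPM), and H1 and H3 genes were highest there in the middle band. Of the 29 members at 10 CPM or more in any library, 13 in control, 22 in young and 14 in old had their highest level in the high band and 0 in the highest. The band of highest level was not counted over all genes, so these counts have no background. The drop was -0.67 in control (interval -0.71 to -0.63), -0.50 in young (-0.54 to -0.46) and -0.45 in old (-0.48 to -0.41) on the log2 scale. Over 9 other settings, chosen after these sums were seen, it stayed below 0 in each library, between -0.85 and -0.40. The S-phase list did not drop in these bands: in control it rose from 1272 CPM in the zero to 2881 in the highest band. With Mpo limits of 10, 40 and 100 that list did fall from the high to the highest band. It went from 2897 to 2755 CPM in control, 2956 to 2855 in young and 3091 to 2674 in old. The G2/M list dropped from 1929 CPM in the high to 1321 in the highest band in control, from 2431 to 1726 in young and from 2492 to 1702 in old. At this last step histones went with the G2/M list. Before it both histones and the S-phase list rose at each step, but not by like sizes. With cells thinned to 3000 UMIs, which moves cells between bands, the first step was not a rise in each library. There histones went from 1067 to 1033 CPM in control and 1384 to 1309 in young, and from 1069 to 1113 in old. From the middle to the high band the list went from 1902 to 2775 CPM in control, 1986 to 2807 in young and 2413 to 3019.9 in old. Histones changed little there in control and old (1165 to 1175 and 1384 to 1422 CPM). The G2/M list rose with histones from the zero to the low band, where it was highest (2723, 2844 and 2569 CPM in control, young and old).

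**Figure D2:**
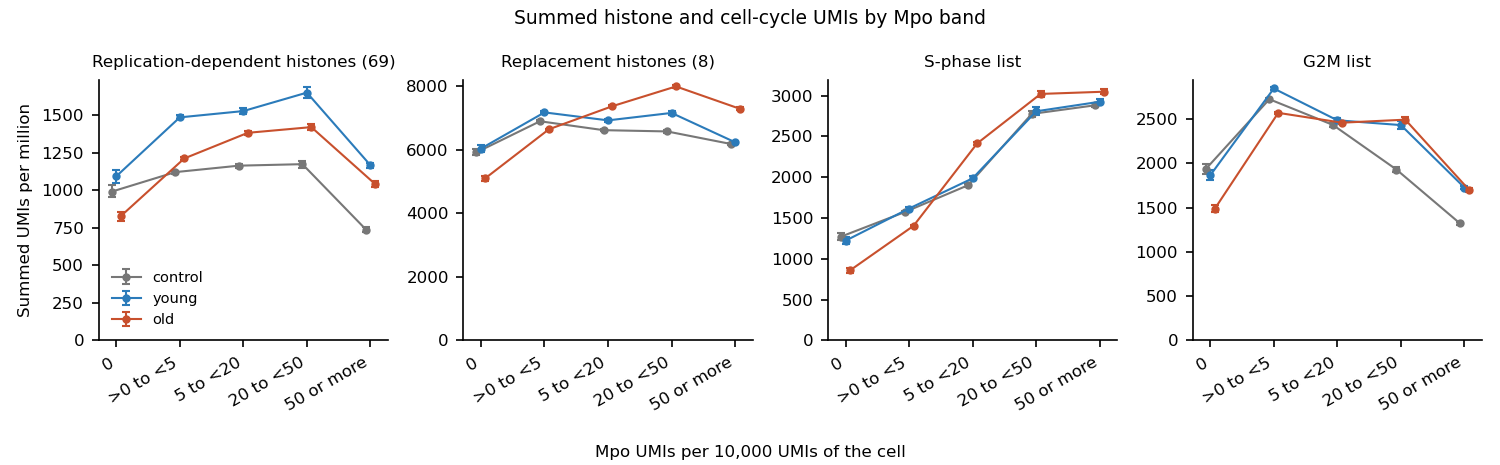
Summed CPM of the replication-dependent histones, the replacement histones, the S-phase list and the G2/M list in the 5 Mpo bands; lines are libraries and bars exact 95% counting intervals. Replication-dependent histones are highest in the band of 20 to under 50 (1175, 1652 and 1422 CPM in control, young and old) and fall in the last band, where the S-phase list stays high.

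The drop was shared by nearly all members. Among genes at 10 CPM or more in either band, 18 of 18 replication-dependent members were lower in the highest than in the high band in control, 32 of 32 in young and 27 of 28 in old, where 30.5%, 28.3% and 33.8% of all genes were. By at least 1.5 times 9, 10 and 9 members were lower, where 4.27%, 3.45% and 3.83% of all genes were, and 0 were higher, where 13.5%, 17.7% and 13.7% were. Hist1h2ap had 362, 420.4, 413, 409 and 241 CPM from the zero to the highest band in control. It had 337, 499.5, 503, 526 and 332 CPM in young and 204, 369, 396, 411 and 291 CPM in old. Hist1h1b had 77.8, 89.2, 97.8, 104 and 61.3 CPM in control, 84.3, 113, 119.6, 130.0 and 91.5 CPM in young and 49.7, 87.1, 109, 115 and 83.6 CPM in old. Both genes thus peaked below the highest band in each library. Hist1h4i, an H4 gene, fell less: 68.6 to 51.1, 82.0 to 67.9 and 82.9 to 74.3 CPM from the high to the highest band.

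The ends of the Mpo range compare less clearly. The replication-dependent sum in the highest over the zero band was -0.43 in control, 0.095 in young and 0.33 in old on the log2 scale. The median gene tested was itself higher in the highest band by 0.75, 0.74 and 0.85 in young, control and old. With Mpo limits of 10, 40 and 100 the old and young values turned to -0.25 and -0.30, and with the thinned cells, which fall into other bands (2952 instead of 413 old cells in the zero band), to 0.016 and -0.26. In UMIs per cell the sum was higher in the highest band in all 3 libraries (0.46, 0.92 and 1.11 in control, young and old). That scale raises every gene by the same factor, the ratio of mean UMIs per cell of the bands, so the change is not particular to histones. At the 1.5-fold size limit 1 replication-dependent member was higher and 6 lower of 18 in control, 2 higher and 2 lower of 25 in young, and 8 higher and 3 lower of 24 in old. Of all genes 56.1%, 57.3% and 59.6% were higher and 12.0%, 9.28% and 11.6% lower. With replacement genes included, 2 were higher and 8 lower in control, 3 and 2 in young and 12 and 4 in old. In UMIs per cell, where depth moves every gene up alike, all 14, 34 and 24 members past the limit were higher. With thinned cells 7 of the 9 in young were lower. The share of all genes past the limit was not counted in UMIs per cell or with thinned cells. Hist1h1e, a linker histone gene, was lower past the limit in all 3 libraries. Its 3′ end overlaps Hist1h2be on the same strand, and every 100-base window of its last 400 bases also occurs in another gene, so its count is uncertain.

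Both genes for the same replacement H3 moved in opposite directions along Mpo in CPM. H3f3a had 1102, 1098, 984, 774 and 682 CPM from the zero to the highest band in control, 1261, 1237, 1157, 1001 and 881 CPM in young and 1241, 1235, 1079.8, 884 and 793 CPM in old. H3f3b had 1449, 1733, 1757, 2036 and 1944 CPM in control, 1462, 1661, 1691, 1942 and 1772 CPM in young and 1318, 1665, 2009, 2507 and 2397 CPM in old. H3f3a fell at each step on this scale, whereas in UMIs per cell, which are not scaled for depth, its highest over zero log2 ratio was 0.19 in control and 0.13 in old. H3f3b rose up to the high band and was lower again in the highest. Its highest over zero log2 ratio was 0.42 in control, 0.28 in young and 0.86 in old. The median gene tested rose by 0.74, 0.75 and 0.85, so H3f3b rose less than that gene in control and young. As a share of the UMIs of both genes, H3f3b made up 56.8% (Clopper-Pearson interval 55.6 to 58.1) in the zero and 74.0% (73.6 to 74.5) in the highest band in control. It made up 53.7% and 66.8% in young and 51.5% and 75.1% in old. The share does not depend on the scaling. H3f3a lies on chromosome 1 (180800832 to 180813943, minus strand) and overlaps H3f3aos and Gm17275 on the other strand, and H3f3b on chromosome 11 (116021912 to 116027962).

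H2afy, of the 7 replacement genes at 10 CPM or more, had the largest rise with Mpo. It had 105, 106, 124, 196 and 319.9 CPM in control, 84.3, 83.0, 104, 141 and 262 CPM in young, and 80.3, 102, 134, 190.5 and 295 CPM in old. The highest band stood 3.04, 3.11 and 3.68 times above the zero band. Among those 7 it was the only gene past 1.5-fold upward in control and young, while H2afv, H2afz and H3f3b also passed in old. Of all genes tested 56.1% in control, 57.3% in young and 59.6% in old passed upward, so the passes in old were near that share. H1fx, a linker histone gene too low to be tested, had 33, 32 and 3 UMIs in the highest band of control, young and old (2.17, 2.22 and 0.249 CPM) and 10, 11 and 5 in the larger low band (0.227, 0.338 and 0.0732 CPM). The log2 ratios of H2afy, 1.61, 1.64 and 1.88, exceeded the shift of the median gene in each library.

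H2afx peaked in the low band and fell from there in CPM, while in UMIs per cell its highest over zero log2 ratio in control was 0.012. It had 264, 349, 282, 179.8 and 145 CPM in control, 243, 364, 298, 269 and 191 CPM in young, and 163, 284, 233, 205 and 155 CPM in old. H2afz had 2721, 3267, 3146, 3079.7 and 2789.7 CPM in control and 2652, 3364, 3202, 3279 and 2677 CPM in young, so both ends of the range were alike there (log2 ratios 0.036 and 0.014, with intervals of -0.0017 to 0.074 and -0.025 to 0.053). In old it had 2018, 2899.8, 3407, 3665 and 3173 CPM. From the high to the highest band the whole replacement sum changed by -0.089, -0.20 and -0.13 on the log2 scale in control, young and old. This was less than the replication-dependent sum, but most replacement genes fell too. Of 7 tested, 6 were lower in each library, all but H2afy, where 30.5%, 28.3% and 33.8% of all genes were. The median log2 ratio of the 7 was -0.14, -0.18 and -0.16, against 0.18, 0.22 and 0.15 for all genes.

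**Figure D3:**
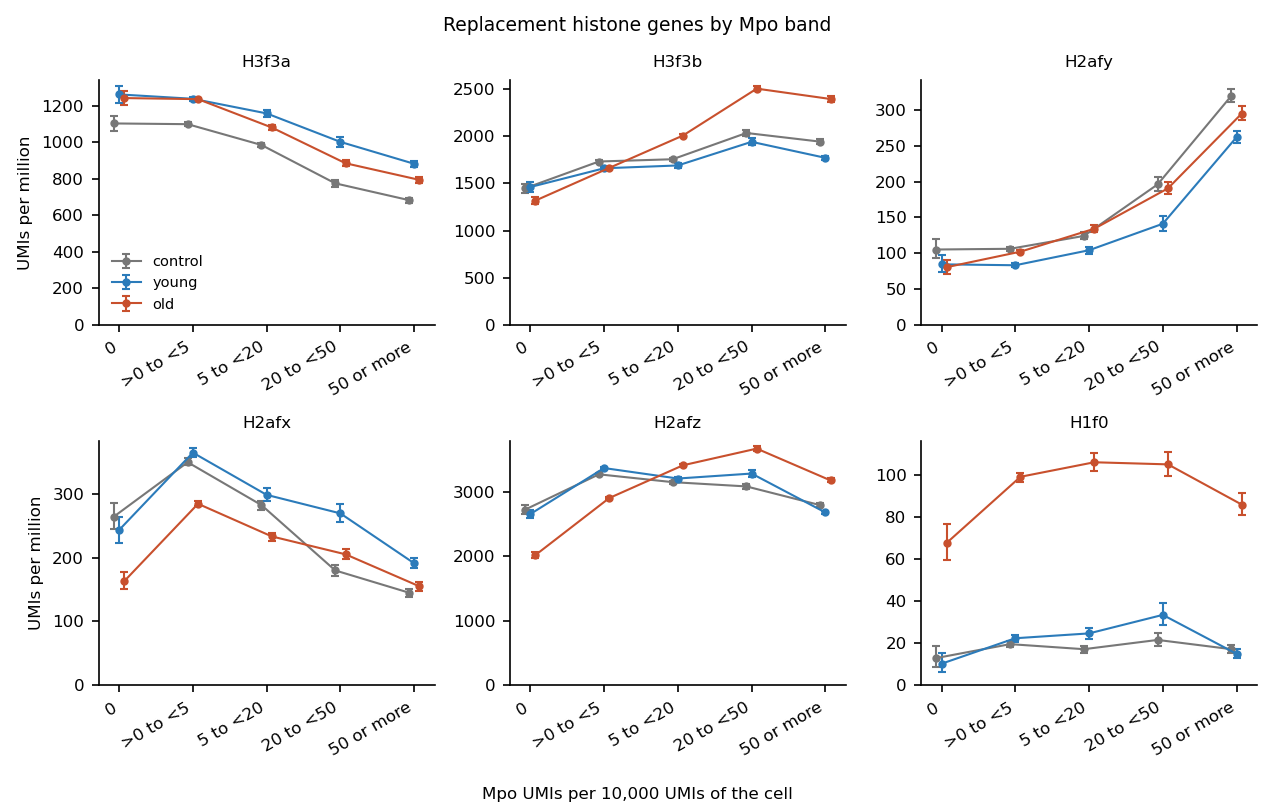
CPM of 6 replacement histone genes in the 5 Mpo bands; lines are libraries and bars exact 95% counting intervals. H3f3a falls with Mpo, H3f3b rises up to the band of 20 to under 50 and then drops slightly, H2afy is 3.04 to 3.68 times higher in the last band than in the zero band, and H1f0 is higher in the old library (67.7 to 106 CPM) than in control or young (10.3 to 33.5 CPM) in every band.

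Between libraries, replication-dependent histones were highest in young and lowest in control. The old over young log2 ratio of the sum was -0.20 (interval -0.22 to -0.19), control over young -0.41 (-0.42 to -0.40) and old over control 0.21 (0.19 to 0.22). Control and young are both labelled 3 months old, yet the gap between those libraries was larger than that between old and young. Ratios with control compare libraries that the paper reports apart, so handling and label cannot be told apart there. With no replicate libraries, none of these differences can be set against the spread between mice. Within the Mpo bands, old over young ran from -0.40 in the zero to -0.16 in the highest band and control over young from -0.14 to -0.66. Old over control changed sign, from -0.26 in the zero to 0.50 in the highest band. The bands did not hold like cells in each library: 6 genes of maturing neutrophils summed to 6992 CPM in the zero band of old, 2103 in control and 2652 in young, and over all cells to 2194, 609 and 1052 CPM. Their part in these ratios was not tested. Per cell, without scaling for depth, old over young turned to 0.069, a shift that is the same for every gene.

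By family the libraries ordered differently. H2B genes gave 143 CPM in control, 203 in young and 239.8 in old, with old the highest. H3 genes gave 55.8, 93.2 and 63.1 CPM and H2A genes 537, 691 and 567 CPM, both with young the highest. H1 genes gave 212, 274 and 234 CPM, and H4 genes 125, 165 and 134 CPM. The old over young log2 ratio was 0.24 for H2B (interval 0.21 to 0.27) and between -0.56 and -0.22 for the other 4 families.

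At the 1.5-fold limit 3 members were higher and 4 lower of 36 in old over young, where 5.03% of all genes tested were higher and 10.2% lower. The higher ones were H1f0, Hist1h2bp and Hist1h2bc, and the lower ones Hist1h3b, Hist1h1d, Hist1h2bn and Hist1h4h. In control over young 14 of 35 members were lower, all of them replication-dependent, where 3.73% of all genes were, and 0 were higher, where 2.54% were. In old over control 10 of 32 members were higher, where 5.34% of all genes were, and 0 lower, where 8.77% were. Some of these members reached 10 CPM only in the library where they were higher. Hist1h3d had 5.34 CPM in control and 11.1 in young, and Hist1h2bp 8.60 in control and 23.6 in old. The counts thus depend on the minimum, and fewer members passed with a minimum of 50 CPM. The median log2 ratio of the replication-dependent members tested was -0.20, -0.55 and 0.39 in these comparisons, and of all genes -0.084, -0.010 and -0.077. The comparisons share libraries, so their counts are not independent. Markers of other blood cells differed too in the cells used. Each of the 8 lists was highest in young, at 8.92 to 52.6 CPM against 1.71 to 19.3 in control and 1.86 to 18.2 in old, and the T cell gene Cd3e was at 0 in control and old. With the cells set aside kept in, control over young was -0.43 and old over young -0.23.

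**Figure D4:**
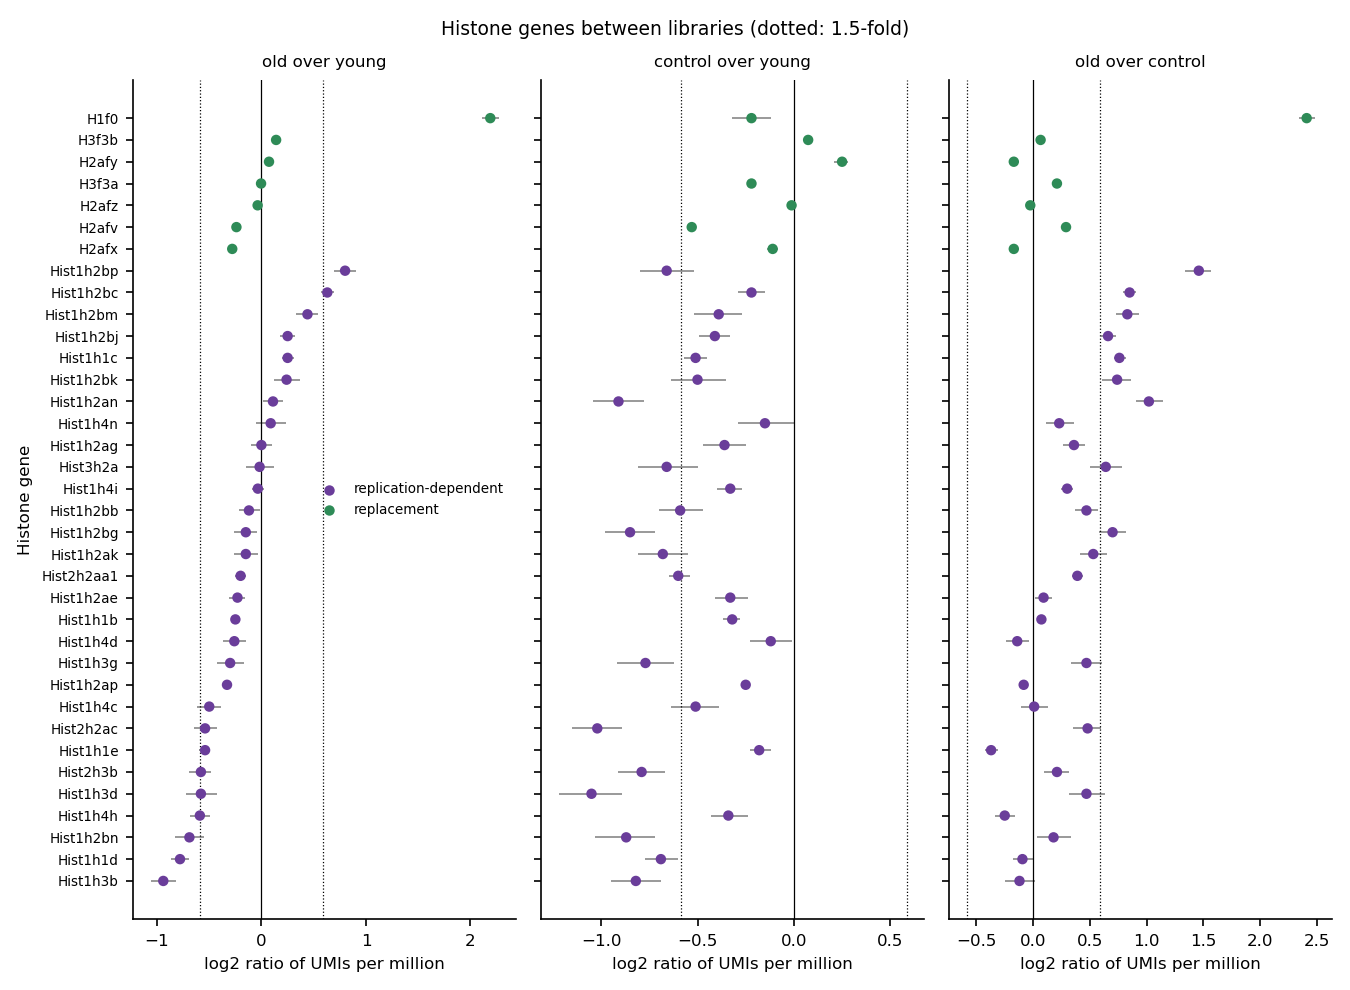
Log2 ratio of each histone gene at 10 CPM or more in any library between libraries, with exact 95% counting intervals, dotted lines at 1.5-fold and an x axis of its own in each panel. In control over young every replication-dependent gene lies at or left of -0.12, and H1f0 stands apart in both comparisons with old (2.19 and 2.41).

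The H2B genes did not move together. Hist1h2bp had 8.60 CPM in control, 13.6 in young and 23.6 in old, with log2 ratios of 0.80 for old over young and 1.46 for old over control. Hist1h2bc had 38.3, 44.7 and 69.1 CPM, and Hist1h2bm 11.6, 15.2 and 20.6 CPM. Old was the highest of the 3 libraries for these genes, but not for Hist1h2bn (6.35, 11.6 and 7.20 CPM), Hist1h2bg (9.06, 16.3 and 14.7 CPM) and Hist1h2bb (12.8, 19.2 and 17.7 CPM), where young was. The H3 gene Hist1h3b had 9.19 CPM in control, 16.2 in young and 8.47 in old, and the linker histone gene Hist1h1d 19.9, 32.0 and 18.7 CPM. For both of these genes young stood above the other libraries. Hist1h2bp and Hist1h2bc lie on chromosome 13 (21787461 to 21789213 and 23684199 to 23692908, plus strand), where 53 of the 67 replication-dependent members with a position are found.

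H1f0 showed the largest ratio among the members at 10 CPM or more in both comparisons with the old library. It had 18.6 CPM in control (1773 UMIs), 21.7 in young (1472 UMIs) and 98.8 in old (11709 UMIs). The log2 ratio was 2.19 for old over young and 2.41 for old over control, and control over young was -0.22. In control the zero Mpo band held 31 UMIs of the gene, and the level was 19.6, 17.2, 21.6 and 17.2 CPM from the low to the highest band. From the zero to the highest band it was 10.3, 22.4, 24.7, 33.5 and 15.0 CPM in young and 67.7, 99.1, 106, 105 and 85.9 CPM in old. Every band of the old library thus stood above every band of the others. H1f0 also followed the G2/M list, from 7.32 to 25.6 CPM in control, from 9.12 to 30.0 in young and from 40.8 to 141 in old between the bottom and top bins. In cells low in both lists it stood at 6.61, 10.7 and 36.5 CPM. The gene lies on chromosome 15 (79028450 to 79030504, plus strand) and overlaps Gm49544 on the other strand. Its gap between libraries did not go with the other replacement genes: the remaining 6 at 10 CPM or more differed by -0.28 to 0.14 on the log2 scale in old over young.

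Below 10 CPM, Hist1h4m stood out, and was chosen after its values were seen. It had 416 UMIs in young (6.12 CPM), 70 in control (0.735 CPM) and 7 in old (0.0591 CPM). Of the 100-base windows of its transcript 88.1% also occur in other genes, so these counts are uncertain.

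Few of the genes that handle histones and their mRNA passed the limit between libraries. Of 13 genes of histone mRNA processing and decay, 10 were tested in old over young and 0 passed the 1.5-fold limit, 11 were tested in control over young with 0 past it, and 11 in old over control with Upf1, a helicase of mRNA decay, lower (14.0 CPM in control and 8.33 in old). Of all genes 5.03% were higher and 10.2% lower in old over young, 2.54% and 3.73% in control over young and 5.34% and 8.77% in old over control, so such counts are near the background for lists of this size. Slbp had 294 CPM in control, 301 in young and 272 in old. Of 21 histone chaperones 19 were tested in each comparison, and those past the limit were Set, with 239, 124 and 94.0 CPM, and Npm1, with 372, 248 and 199 CPM, both higher in control. The median log2 ratio of the chaperones in old over young was -0.32, against -0.084 for all genes. Nasp, which holds free H3 and H4, had 66.0, 65.0 and 67.9 CPM. Along Mpo 16 of 21 chaperones were at least 1.5 times higher in the highest than in the zero band in control and 1 was lower, 14 of 21 were higher in young and 17 of 19 in old, beside 56.1%, 57.3% and 59.6% of all genes. Of the processing genes 6, 9 and 10 of 11 were. Nasp went from 44.6 to 107, from 38.5 to 99.4 and from 29.4 to 116 CPM. Slbp went from 242 to 296, from 210.1 to 303 and from 135 to 334 CPM.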

How the data were processed

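The files deposited by the authors hold whole UMI counts per gene and cell, not normalized. The submitters' processing notes name Cell Ranger 2.1.0, STAR and the build mm10. How reads in several copies of a gene were treated is not given in the sources used here. Cells with under 200 genes, over 20% mitochondrial UMIs, or a UMI count outside the 5th to 95th percentile (control by itself, young and old together) were left out. Cells with at least 3 genes and 5 UMIs of 1 of 8 marker lists of other blood cells were set aside, and no doublet caller was run. UMIs were summed over cells and given as CPM, with exact Poisson intervals, Clopper-Pearson intervals for shares and conditional binomial intervals for ratios (95%, counting error only). A gene was tested for size at 10 CPM or more on either side, with a limit of 1.5 times. Each condition is 1 library, so no p-value is given.

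Members, lists and tests were chosen with earlier results of these data known. Named were all replacement members, the 25 replication-dependent members with the highest mean CPM, pathway genes past the limit, and Slbp and Nasp. Hist1h2bn, Hist1h3g, Hist3h2a and Hist1h4m fall outside this rule and were chosen after their values were seen. Of the gene identifiers 27722 were found in GENCODE M21, and 75 of the 77 members. Alternatives changed the cell filter, scaling, thinning to 3000 UMIs, centring, Mpo limits, the CPM minimum and the size limit. The size limit and the intervals were tested on simulated counts. Those counts were drawn with Poisson error alone, which the intervals assume, so spread between mice or cells was not covered. Sums were made with numpy 2.4.6 and pandas 2.3.3, intervals with scipy 1.17.1 and plots with matplotlib 3.10.9, under Python 3.11.15.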

Additional observations from a re-analysis of the deposited data

Results flagged for a closer look

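These values were picked out because they moved in opposite directions in at least 2 libraries or Mpo bands. There the counting intervals lay on opposite sides of 0, and the log2 ratios themselves were at least 0.1 in size. The differences between them were not tested, since each condition is 1 library.

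The highest over the zero Mpo band went down in control and up in old for the replication-dependent sum, with log2 ratios of -0.43 in control, 0.33 in old and 0.095 in young. The median gene tested rose by 0.74, 0.85 and 0.75 between these bands in control, old and young, more than the sum in each library. With Mpo limits of 10, 40 and 100 the sum went down in each library. It went from 992 to 566 CPM in control, 828 to 698 in old and 1094 to 887 in young. In CPM with the first limits, opposite directions in control and old also held for 3 single genes. The ratios were -0.59, 0.51 and -0.022 for the H2A gene Hist1h2ap, -0.34, 0.75 and 0.12 for the linker histone gene Hist1h1b, and -0.89, 0.83 and -0.050 for the H3 gene Hist1h3g, in control, old and young. Depth moved with the bands, with a median of 5927 to 12821 UMIs per cell in control, 8205 to 15060.5 in old and 6004 to 12182 in young from the zero to the highest band. With cells thinned to equal depth the replication-dependent ratio in old was 0.016, but thinning also moved cells between bands, from 413 to 2952 cells in the zero band of old, so that depth and band cannot be told apart there.

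Ratios between libraries changed sign along Mpo. From the zero to the highest band, old over control of the replication-dependent sum was -0.26, 0.11, 0.25, 0.28 and 0.50. For the replacement sum, old over young was -0.24, -0.11, 0.090, 0.16 and 0.23, and old over control was -0.21, -0.054, 0.16, 0.28 and 0.24. In all 3 series the old library was lower in the zero band and higher in the high and highest bands. Cell content differed too: 6 genes of maturing neutrophils summed to 6992 CPM in the zero band of old, 2103 in control and 2652 in young, and to 486, 196 and 492 CPM in the highest band. Their part was not tested.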

How the results depend on the processing

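No paired analysis was possible because each condition is 1 library. Log2 ratios are given below for control, young and old where 3 stand together, RD stands for the replication-dependent sum, and for every change the cause was not tested. The fall from the high to the highest Mpo band kept its direction in each library under the 9 alternatives run for it, and so did the rise of RD with the S-phase list and RD in control over young under theirs. The highest over the zero band did not.

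In UMIs per cell, RD highest over zero was 0.46, 0.92 and 1.11, RD by S-phase bin 1.99, 1.99 and 2.84, control over young -0.47, old over control 0.54 and old over young 0.069. The replacement sum was 0.95, 0.88 and 1.29 for highest over zero, -0.11 for control over young, 0.39 for old over control and 0.28 for old over young. Highest over zero then reversed in control for Hist1h2ap (0.30), Hist1h1c (0.072), Hist1h3b (0.20), H2afx (0.012) and H3f3a (0.19), in old for Hist3h2a (0.19) and H3f3a (0.13), and in young for Hist3h2a (0.056). Past the limit were 34 members in young for highest over zero, all higher, and 18 in old over control, all higher. UMIs per cell shift every gene of a comparison by the same amount, the depth ratio of its sides, so these changes are not particular to histones.

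Centred on the median of all genes, RD highest over zero was -1.17, -0.65 and -0.52, by S-phase bin 0.83, 0.83 and 1.62, old over young -0.12 and old over control 0.28. The replacement sum gave -0.68, -0.70 and -0.34 for highest over zero, -0.039 for control over young, 0.14 for old over control and 0.095 for old over young. Hist1h2ag in control (-0.031) and Hist1h2bm (-0.18), Hist1h1b (-0.10), Hist1h4n (-0.20) and H2afz (-0.20) in old reversed.

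With cells thinned to 3000 UMIs, RD highest over zero was -0.26 in young and 0.016 in old, by S-phase bin 1.17, 1.21 and 1.77, control over young -0.36, old over control 0.14 and old over young -0.23. Replacement genes gave -0.15, -0.16 and 0.22 for highest over zero, -0.058 for control over young, 0.052 for old over control and -0.0063 for old over young. In young 9 members passed for highest over zero, and Hist2h3b reversed (-0.17). With Mpo limits of 10, 40 and 100, highest over zero was -0.81, -0.30 and -0.25 for RD and -0.018, -0.031 and 0.30 for the replacement sum, with 8 members past the limit in young and Hist1h2bm reversed in old (-0.73).

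Without the member with the most UMIs (Hist1h2ap or H2afz), RD highest over zero was -0.34 in control and 0.27 in old, by S-phase bin 1.10, 1.06 and 1.87, control over young -0.49, old over control 0.35 and old over young -0.15. The replacement sum was 0.42 in old for highest over zero, and -0.081, 0.13 and 0.051 for control over young, old over control and old over young. As the median of members, RD was -0.24, 0.25 and 0.41 for highest over zero, 1.26, 1.24 and 2.37 by S-phase bin, -0.55 for control over young and 0.39 for old over control. The replacement median was 0.10, 0.28 and 0.65, then -0.11 for control over young, 0.066 for old over control and -0.0042 for old over young.

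Without percentile limits on UMIs, RD was 0.19 in young for highest over zero, 1.56 in young and 2.14 in old by S-phase bin, -0.16 for old over young and 0.24 for old over control, and 11 members passed in young for highest over zero. The replacement sum stood at 0.11 in control and 0.12 in young for highest over zero, and -0.032, 0.076 and 0.043 for control over young, old over control and old over young. With percentiles set within each library, RD was 1.54 in young by S-phase bin and -0.17 for old over young, and the replacement sum -0.033, 0.074 and 0.041. With other blood cells kept in, RD was -0.079 in young for highest over zero, 1.49 in young by S-phase bin, -0.43 for control over young and -0.23 for old over young. For the replacement sum the values were 0.022 in control and -0.068 in young for highest over zero, -0.081 for control over young and -0.024 for old over young. With the Mpo bands weighted equally, RD was 0.18 for old over control and -0.23 for old over young, and the replacement sum -0.059, 0.096 and 0.037.

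Counts past the limit, in the order highest over zero in control, young and old, then old over young, control over young and old over control, were 10, 5, 16, 7, 14 and 10 in the report. They were 5, 2, 8, 2, 1 and 3 with a minimum of 50 CPM, and 4, 2, 4, 1, 2 and 3 with a limit of 2 times. With a minimum of 1 CPM the first 5 were 30, 23, 36, 15 and 33. The share of all genes past the limit was not recounted under the alternatives. Of the sums and counts recomputed under these alternatives, 61 stayed within their error or within 1.5 times, 106 moved beyond it and 19 reversed. Of 434 values of named members under alternatives, 15 reversed and 56 fell under 1.5 times in the same direction.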
